A study of Poecilia mexicana x Poecilia latipinna and Poecilia formosa with 28 samples.

Results

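The liver libraries of this study set a clonal fish against a newly made hybrid of the same ancestry. They were chosen by organ and fish: 10 of the 28 libraries, from the livers of 4 females of Poecilia formosa, the Amazon molly (fish 3, 4, 11 and 12), and 6 female F1 hybrids of Poecilia mexicana and Poecilia latipinna (fish 4, 10, 11, 12, 13 and 14). The P. formosa fish came from 1 laboratory clone kept for about 70 generations and founded by fish caught in Mexico. The hybrids came from 1 brood, with a virgin P. mexicana as mother and P. latipinna as father. All fish were 3 months old, untreated, matched in size and raised together. The brood is a single cross and the clone a single line, so p-values cover the spread among fish within each and not among clones or crosses.

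P. formosa is an all-female species that arose by hybridization of the same parental species and reproduces by gynogenesis: sperm of a host male starts development, but the offspring are copies of the mother. Its genome therefore still carries an allele from each ancestor, as an F1 hybrid does, with the changes of a long clonal history added. The liver makes most plasma proteins, handles sugars, lipids and foreign compounds, and devotes much of its messenger RNA to a small number of transcripts for secreted and metabolic proteins. In egg-producing females it also makes yolk precursors. Genes in the table carry numeric IDs without names, so genes are described here by level, rank and pattern, and no role is given to any of them.

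The count totals were 42166177 to 43368671 in P. formosa livers and 40586409 to 46316691 in hybrid livers. Of 31997 genes in the table, 25772 had a count in at least 1 liver and 17402 passed the filter on low counts. The tested genes held 99.9% of all liver reads. Marker genes of liver could not be looked up by name. Liver libraries correlated with each other across genes at 0.896 to 0.979 (log2 CPM, where CPM is a count scaled to the size of its library), against 0.504 to 0.670 with brain and 0.573 to 0.675 with ovary libraries. Over the tested genes, given below, the range among liver pairs was wider, at 0.819 to 0.983. In whole organs, fewer cells of a type and less RNA per cell cannot be told apart.

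Some livers stood apart within their own group. Across the tested genes, pairs of P. formosa livers correlated at 0.952 to 0.983 (6 pairs), pairs of hybrid livers at 0.918 to 0.980 (15 pairs), and pairs of 1 fish from each group at 0.819 to 0.912 (24 pairs). On the first principal component, which held 60.1% of the variance, P. formosa fish 11 and 12 lay at -122.8 and -121.4, fish 3 and 4 lay at -73.0 and -84.9, and the hybrids lay between 51.4 and 94.0. The second component held 14.6% and ran within the hybrids, with fish 12 at -66.0 and fish 14 at -39.1, against 61.8 for fish 4 and 79.1 for fish 10. The library numbers in the labels put hybrids 4 and 10 in the same series as all P. formosa fish and hybrids 11 to 14 in a later series. The labels give no batch. Within the brood, hybrids 11 to 14 had 778 genes above and 955 genes below hybrids 4 and 10, which is 10.2% of 16922 tested (edgeR quasi-likelihood test, adjusted p under 0.05).

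The liver genes called higher in the clone were mostly scarce ones with large differences, and the genes called lower were more abundant ones with smaller differences. By edgeR's quasi-likelihood test with Benjamini-Hochberg adjustment, 4213 genes were higher (24.2% of those tested) and 3916 lower (22.5%) in P. formosa, 46.7% in all. This near balance depends on the scaling. TMM put the median log2 fold change of all tested genes at 0.01, and 51.8% of the called genes were higher with it, against up to 66.2% with other scalings. The called genes had a median log2 fold change of 1.56 on the higher and -1.002 on the lower side. Up to 100 CPM these medians shrank as the level rose, on both sides, and above it they did not. A scarce gene needs a larger difference to be called, which favours large medians at low levels. The medians were 2.04 and -1.74 under 1 CPM, 1.62 and -1.12 at 1 to 5 CPM, and 1.09 and -0.92 at 5 to 20 CPM. They were 0.91 and -0.89 at 20 to 100 CPM, 1.23 and -0.97 at 100 to 1000 CPM, and 1.02 and -1.18 at 1000 CPM and over. The median level, as the mean of the group means, was 2.81 CPM for higher and 12.6 CPM for lower genes. Differences over 4-fold numbered 1491 higher and 439 lower, over 8-fold 646 and 179, and over 16-fold 276 and 95. The groups did not overlap for 3130 genes above (18% of those tested) and 2970 genes below the hybrids (17.1%), 35.1% together, and 3054 and 2908 of these were also called.

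Which fish were compared changed the size of these lists. Against hybrids 4 and 10 alone, of the same library series, P. formosa had 3522 higher and 3261 lower genes (36.4% of 18625 tested). Against hybrids 11 to 14 alone, 4721 were higher and 4338 lower (53% of 17083 tested). The P. formosa livers are shared by both comparisons, and the number of hybrids differs. A model with a term for the library series gave 3229 higher and 3070 lower genes, 36.2%. No P. formosa fish is in the series of hybrids 11 to 14. With this term the clone is therefore again compared with hybrids 4 and 10, and hybrids 11 to 14 add only to the estimate of spread. Results with a series term are thus no separate check from those with hybrids 4 and 10 only. Without hybrids 12 and 14, 3650 were higher and 3344 lower, 40.6% of 17206 tested. With only P. formosa fish 3 and 4, 2246 were higher and 1836 lower of 17897 tested. With only fish 11 and 12 the numbers were 4102 and 3285 of 18486 tested. Fish 3 and 4 lay nearer to the hybrids on the first component, which rests on the same genes, so fewer calls follow from that choice.

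**Figure D1:**
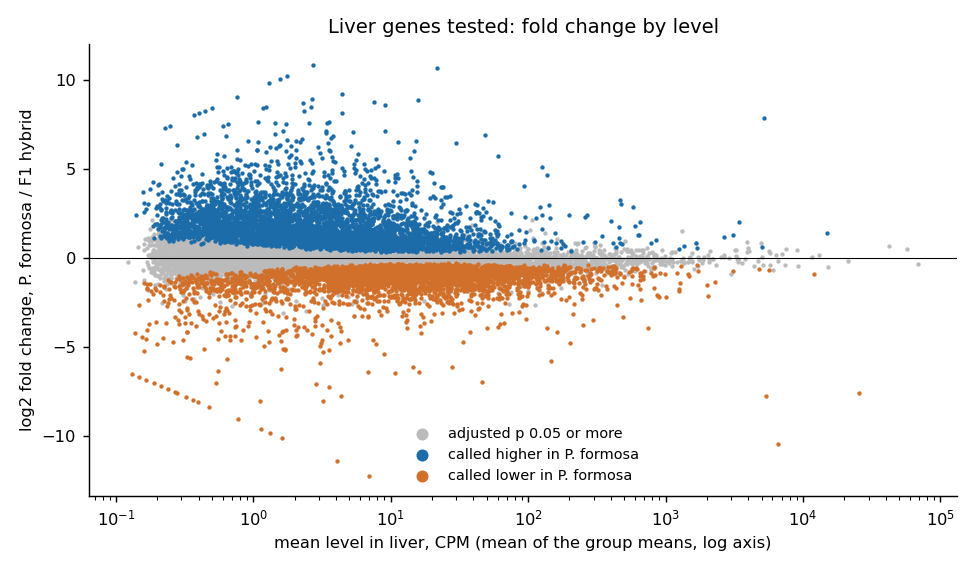
Log2 fold change of P. formosa over F1 hybrid for each of the 17402 tested liver genes (vertical axis) against the mean level in CPM (horizontal log axis), with genes called higher in P. formosa in blue and genes called lower in orange. Calls at low level lie mostly above the zero line and calls between 20 and 1000 CPM mostly below it, and a few abundant genes stand far off on either side.

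The direction of the difference followed the level of the gene. Among 3580 tested genes with a mean under 1 CPM, 1067 were higher and 314 lower in P. formosa, so that 77.3% of the called genes were higher. Among 5038 genes at 1 to 5 CPM, 1676 were higher and 706 lower (70.4% higher). The balance turned at 5 to 20 CPM, where 1087 of 5111 genes were higher and 1479 lower (42.4% higher).

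Above that level the calls lay mostly on the other side. At 20 to 100 CPM, 330 of 2765 genes were higher and 1122 lower (22.7% higher), and at 100 to 1000 CPM, 43 of 797 were higher and 275 lower (13.5% higher). At 1000 CPM and over, 10 of 111 genes were higher and 20 lower, and the share called, 27.0%, was below the 46.7% of all tested genes. The median log2 fold change of all genes of a class was 0.47, 0.30, -0.11, -0.38, -0.34 and -0.11 from the lowest class to the highest, beside 0.01 over all tested genes. Genes under 1 CPM entered the test only where enough libraries had enough counts, which can favour genes that are higher in 1 group, so the class at 1 to 5 CPM is given beside it below.

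The turn with level was also seen with either part of the brood. With hybrids 11 to 14 only, 70.4% of the called genes at 1 to 5 CPM were higher in P. formosa and 21.0% of those at 100 to 1000 CPM. With hybrids 4 and 10 only, these shares were 67.9% and 18.8%. Without hybrids 12 and 14 they were 71.4% and 14.1%, and in the model with a series term 67.4% and 19.7%. Under 1 CPM the share ran from 72.8% with the series term to 80.0% with hybrids 11 to 14 only.

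The spread among fish was taken as the median over genes of the standard deviation of log2(CPM + 0.5). The hybrids span both library series and the clone only 1, so hybrids 11 to 14 are also given alone. At 20 to 100 CPM the spread was 0.205 in P. formosa and 0.318 in the hybrids, or 0.248 in hybrids 11 to 14. At 100 to 1000 CPM it was 0.235 in P. formosa and 0.374 in the hybrids, or 0.306 in hybrids 11 to 14. At 1 to 5 CPM it was 0.286 in P. formosa and 0.350 in the hybrids, but 0.292 in hybrids 11 to 14. Under 1 CPM it was 0.259 in P. formosa and 0.267 in the hybrids, and 0.239 in hybrids 11 to 14, below the clone. The added 0.5 is large beside values under 1 CPM and narrows the spread more in the group with lower levels. In this class that was mostly the hybrids (median log2 fold change 0.47), so the groups cannot be ranked by spread there. All these spreads are descriptions without a test.

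The lists depended on how libraries were scaled. TMM, which trims extreme genes before it scales, gave factors of 1.09 ± 0.107 in P. formosa (SD, n = 4) and 0.954 ± 0.101 in the hybrids (SD, n = 6). DESeq2 size factors gave nearly the same factors, with 4197 higher and 3937 lower genes. Upper-quartile factors were 1.02 ± 0.112 and 0.997 ± 0.109. They moved the median of all genes by 0.16 on the log2 scale and gave 5023 higher and 3018 lower genes (62.5% higher, against 51.8% with TMM).

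Scaling to library totals alone moved the median by 0.19 and gave 4786 higher and 2610 lower genes (64.7% higher). Totals without the 10 most abundant genes moved it by 0.21 and gave 5013 higher and 2554 lower (66.2% higher). Of the 4213 genes called higher with TMM, 4186 were called higher under all 5 scalings, while the list of higher genes ran from 4197 to 5023. Of the 3916 called lower with TMM, 2544 were called lower under all 5, and that list ran from 2554 to 3937. Another 2341 genes (13.5% of those tested) were called under some scalings and not under others, and 0 genes were called in opposite directions.

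Under all 5 scalings most called genes under 5 CPM were higher in P. formosa and most called genes between 20 and 1000 CPM were lower. At 1 to 5 CPM the share that was higher ran from 70.1% with DESeq2 size factors to 80.8% with totals without the dominant genes. At 100 to 1000 CPM it ran from 13.5% with TMM to 30.3% with totals without the dominant genes. In the 5 to 20 CPM class the majority changed side, from 42.4% with TMM to 54.6% with upper-quartile factors. At 1000 CPM and over it was 33.3% with TMM and 56.2% with totals without the dominant genes.

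**Figure D2:**
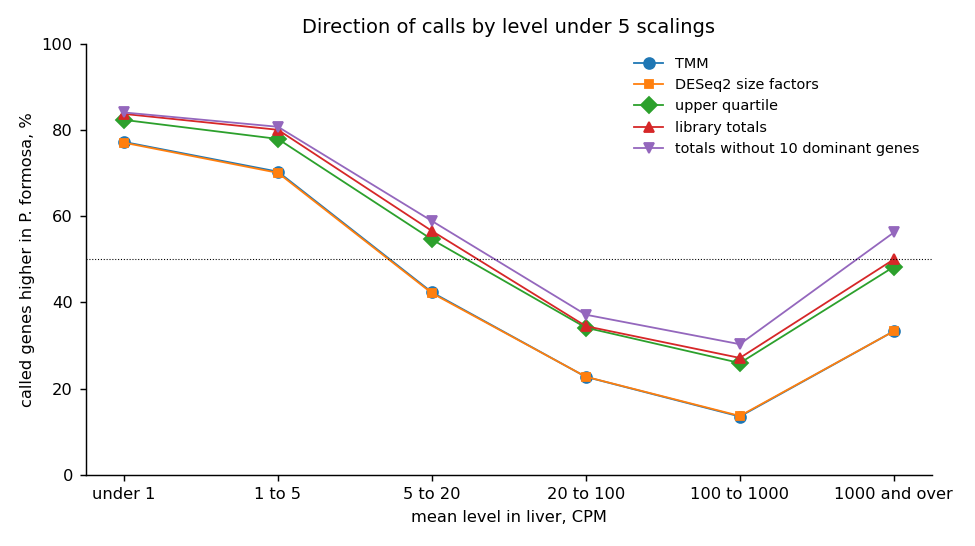
Percent of called liver genes that were higher in P. formosa (vertical axis) in 6 classes of mean CPM (horizontal axis), with 1 line for each of 5 ways of scaling the libraries. The lines fall from 77.3% with TMM in the lowest class to 13.5% at 100 to 1000 CPM, and the other scalings lie on or above it, except DESeq2 size factors, which run almost on the same line.

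More genes were detected in the clone's livers. The number at 1 CPM or more was 13788, 13609, 14639 and 14476 in P. formosa fish 3, 4, 11 and 12, against 12903, 12643, 12946, 12074, 12514 and 12603 in hybrids 4, 10, 11, 12, 13 and 14. Every P. formosa liver lay above every hybrid liver, and hybrids of both library series overlapped. The means were 14128 ± 506 (SD, n = 4) and 12614 ± 315 (SD, n = 6), a difference of 1514 genes (exact two-sided permutation test over 210 splits, p = 0.00952, the smallest it can give, and adjusted p = 0.0286 over 3 measures per library).

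The gap was also present at equal depth and under other scalings. With each library thinned to 40586409 reads, the means were 14144 ± 499 genes in P. formosa and 12623 ± 307 in the hybrids. With TMM-scaled totals they were 13942 ± 362 and 12739 ± 144, and with the 10 dominant genes left out of the total 14994 ± 507 and 13444 ± 256. Genes with at least 10 counts numbered 17784 ± 440 and 16080 ± 331, and genes with any count 22568 ± 372 and 21032 ± 340. The groups did not overlap by any of these measures, and the exact permutation p was 0.00952 each time (n = 4 and 6). Genes under 5 CPM took 1.71%, 1.54%, 2.31% and 2.08% of the reads in the P. formosa livers, in the same order of fish, and 1.17% to 1.47% in the hybrid livers. This measure and the numbers of genes detected rest on the same scarce genes as the calls under 5 CPM and are no separate evidence. Whether reads of both genotypes aligned equally well to the reference was not tested, and neither thinning nor scaling bears on it.

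**Figure D3:**
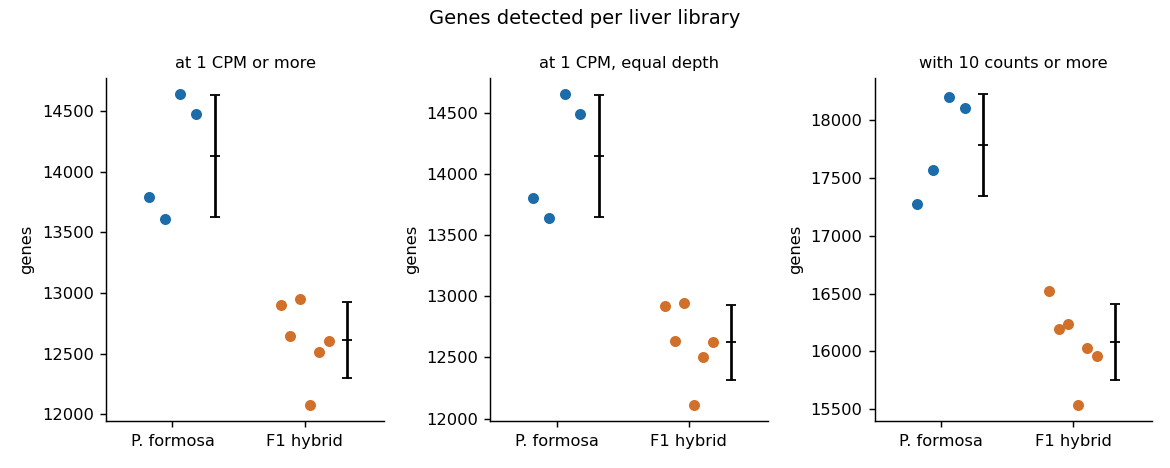
Number of genes detected in each liver library (points) of P. formosa on the left and F1 hybrids on the right, at 1 CPM, at 1 CPM after thinning to equal depth, and at 10 counts, with the mean and SD beside the points (vertical axes do not start at 0). All 4 P. formosa livers lie above all 6 hybrid livers in each panel, at 13609 to 14639 against 12074 to 12946 in the first.

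Genes at the detection level in every liver of 1 group and below it in every liver of the other were mostly scarce there rather than absent. They make up only a part of the difference in genes detected. At 1 CPM or more in every P. formosa liver and below it in every hybrid liver were 446 genes (1.73% of the 25772 with a count), and 80 genes (0.31%) showed the reverse. The 446 had a median level of 2.76 CPM in P. formosa and 0.376 CPM in the hybrids, and 87 of them averaged 5 CPM or more in P. formosa. Only 5 of the 446 had no count at all in the hybrid livers. The 80 had 0.430 CPM in P. formosa and 2.66 CPM in the hybrids, and 3 of them had no count in P. formosa.

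These genes were often present elsewhere in the body of the other genotype. Of the 446, 355 (79.6%) averaged at least 1 CPM in hybrid brain or ovary, with 306 in brain and 292 in ovary. Of the 80, 60 (75.0%) did so in P. formosa brain or ovary. Among 9793 genes under 1 CPM in every liver, the share in hybrid brain or ovary was 59.9%. Those genes were scarcer in hybrid liver, with a median of 0.0277 CPM against 0.376 CPM for the 446, so they are not a matched background. No such share is given for P. formosa organs, to set beside the 80. The 446 and 80 genes were picked by their liver levels, so their liver values are a description.

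A large share of the liver reads of both genotypes came from the same few genes. Exceptions were 3 genes in hybrids 12 and 14 and the gene of rank 24 in P. formosa, all given below. Genes of ranks 38, 39, 47, 68, 82 and 96 varied widely within both groups. All of them were highest in hybrid 10, next in P. formosa 4, and lowest in hybrid 14. The gene of rank 39 stood at 13114, 8585 and 317 CPM in these fish (log2 fold change -0.28, edgeR adjusted p = 0.845). These genes were picked after their values were seen, and the cause was not tested. A library's 10 most counted genes took 30.3%, 29.2%, 29.4% and 32.8% of reads in P. formosa fish 3, 4, 11 and 12. In hybrids 4, 10, 11, 12, 13 and 14 they took 30.3%, 27.9%, 25.6%, 41.4%, 30.8% and 27.3%. Hybrid 12 stood above all other livers, and the other values overlapped. The mean share was 30.4% ± 1.65 in P. formosa (SD, n = 4) and 30.6% ± 5.65 in the hybrids (SD, n = 6; exact two-sided permutation test, p = 0.905, adjusted p = 0.905). Without hybrid 12 the difference, P. formosa minus hybrid, was 2.05 percentage points (exact permutation p = 0.175), against -0.11 with all fish.

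The smallest number of genes that held 50% of the reads was 52, 46, 56 and 39 in P. formosa fish 3, 4, 11 and 12, against 62, 57, 83, 33, 49 and 73 in hybrids 4, 10, 11, 12, 13 and 14. The groups overlapped (mean 48.2 ± 7.41 in P. formosa and 59.5 ± 17.7 in the hybrids, SD, n = 4 and 6; p = 0.286 by exact permutation, two-sided, adjusted p = 0.429).

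Of the 10 genes with the highest mean share of liver reads, 1 was called higher and 2 lower in P. formosa, beside 46.7% called among all tested genes. Among the 100 most counted genes 10 were higher and 19 lower, and their median log2 fold change was -0.09, beside 0.01 over all tested genes. The 10 genes of highest mean share took 27.8% to 30.2% of each P. formosa library and 23.9% to 32.5% of each hybrid library. Shares of reads are not corrected for gene length, so they rank genes by reads and not by molecules. The first-ranked gene took 7.49%, 6.33%, 5.93% and 6.25% of the P. formosa libraries 3, 4, 11 and 12. It took 10.1%, 8.24%, 5.73%, 4.15%, 9.23% and 6.29% of the hybrid libraries 4, 10, 11, 12, 13 and 14. The groups overlapped, and the log2 fold change was -0.34 (SE 0.25, edgeR adjusted p = 0.283). Against hybrids 4 and 10 alone it was called lower in P. formosa (-0.70, adjusted p = 0.0241), and against hybrids 11 to 14 alone it was not (-0.15, adjusted p = 0.668).

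The second-ranked gene took 5.58%, 6.34%, 7.33% and 9.85% in the P. formosa livers and 4.22%, 3.79%, 6.29%, 2.31%, 7.06% and 3.53% in the hybrid livers, in the same order of fish. It was the most counted gene of P. formosa fish 4, 11 and 12 and of hybrid 11, but the groups overlapped (log2 fold change 0.51, SE 0.28, edgeR adjusted p = 0.158). Without hybrid 13 it was called higher (0.72, adjusted p = 0.0307). The third-ranked gene took 5.39% to 6.05% in P. formosa and 1.19% to 4.29% in the hybrids. Its groups did not overlap, with a log2 fold change of 0.67 (SE 0.28), but its adjusted p was 0.0666 in edgeR. It passed with upper-quartile factors (0.0360), library totals (0.0293), library totals without the 10 dominant genes (0.0212) and the DESeq2 test (0.0398). It also passed without hybrid 10 (0.0459) or 12 (0.0462). Within the same library series the difference was smaller, at 0.24 against hybrids 4 and 10 (adjusted p = 0.277) and 0.27 with a series term (adjusted p = 0.559), while against hybrids 11 to 14 it was 0.92 (adjusted p = 0.0240).

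The sixth-ranked gene was the called gene that was higher in P. formosa among these 10. Its share was 2.04%, 2.25%, 2.29% and 2.76% in P. formosa fish 3, 4, 11 and 12, and 1.07%, 1.06%, 0.629%, 0.267%, 1.25% and 0.484% in hybrids 4, 10, 11, 12, 13 and 14. Every P. formosa liver was above every hybrid liver, with a log2 fold change of 1.37 (SE 0.37, edgeR adjusted p = 0.00923). The gene was also called against hybrids 4 and 10 alone (0.92, edgeR adjusted p = 0.0123) and against hybrids 11 to 14 alone (1.65, adjusted p = 0.00791). In the model with a series term the log2 fold change was 0.95, with adjusted p = 0.148. The ninth-ranked gene was lower in P. formosa, at 0.816% to 1.03%, against 0.983% to 2.07% in the hybrids, where only fish 12 reached into the P. formosa range (log2 fold change -0.89, SE 0.20, edgeR adjusted p = 0.00337). The genes of ranks 5, 7 and 8 overlapped between the groups and were not called (adjusted p = 0.621, 0.108 and 0.777). Rank 7 was called lower in P. formosa against hybrids 4 and 10 (log2 fold change -0.81, edgeR adjusted p = 0.0359) and with a series term (-0.78, adjusted p = 0.0498). For rank 8 the 2 parts of the brood gave opposite signs. Its share was 1.22% to 1.76% in P. formosa, 0.446% to 0.974% in hybrids 11 to 14 and 1.96% to 2.10% in hybrids 4 and 10. It was called higher in P. formosa against hybrids 11 to 14 (log2 fold change 0.77, edgeR adjusted p = 0.0210) and lower against hybrids 4 and 10 (-0.66, adjusted p = 0.0355). The gene of rank 10 was the steadiest within the clone, at 1.22% to 1.29% in P. formosa and 0.873% to 1.27% in the hybrids (adjusted p = 0.866).

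**Figure D4:**
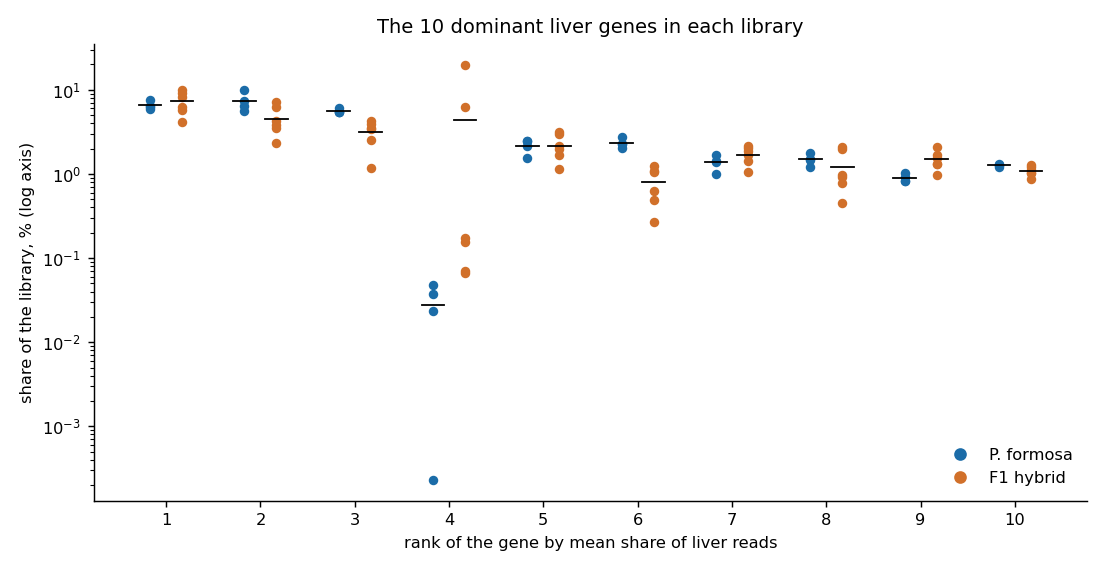
Share of each liver library (vertical log axis, percent of reads) taken by each of the 10 genes with the highest mean share (horizontal axis, by rank), with P. formosa in blue and F1 hybrids in orange and lines at the group means. The sixth-ranked gene separates the groups at 2.04% to 2.76% against 0.267% to 1.25%, and the fourth-ranked gene spans the range from 0.00023% in P. formosa 12 to 19.8% in hybrid 12.

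The fourth-ranked gene owed its rank to 2 fish. It took 19.8% of the reads of hybrid 12 and 6.21% of hybrid 14, and 0.0659%, 0.0708%, 0.173% and 0.157% in hybrids 4, 10, 11 and 13. In the P. formosa livers 3, 4, 11 and 12 it took 0.0238%, 0.0475%, 0.0378% and 0.00023%. In CPM that is 198318 in hybrid 12 and 62133 in hybrid 14, against 2.30 in P. formosa 12, the liver with the lowest level. All P. formosa livers were below all hybrid livers, and edgeR called the gene lower in P. formosa (log2 fold change -7.63, SE 2.43, adjusted p = 0.0243). The call was lost without hybrids 12 and 14 (-2.20, adjusted p = 0.123) and with hybrids 4 and 10 only (-1.51, adjusted p = 0.392). It was also lost in the model with a series term (-1.48, adjusted p = 0.559), which rests on the same contrast with hybrids 4 and 10. Without P. formosa fish 3 or 11 the fold change stayed about as large (-7.56 and -7.73) and the adjusted p was 0.0583 and 0.0659.

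A pair of other genes, of ranks 23 and 31, followed the same fish. The gene of rank 23 stood at 56729 CPM in hybrid 12 and 10610 CPM in hybrid 14, at 13.2 to 363 CPM in the other hybrids, and at 0.166 to 19.2 CPM in P. formosa. The gene of rank 31 stood at 39338 and 15702 CPM in hybrids 12 and 14, at 52.4 to 449.5 CPM in the other hybrids, and at 0.285 to 88.3 CPM in P. formosa. Both were lowest in P. formosa 12. Their edgeR adjusted p was 0.0210 and 0.0290 for all fish, with log2 fold changes of -10.46 and -7.77. Without hybrids 12 and 14 the log2 fold changes were -3.65 and -2.05 (adjusted p = 0.0654 and 0.194), and with a series term -1.24 and -1.42 (adjusted p = 0.672 and 0.606). Without P. formosa fish 3 they stayed at -10.23 and -7.77, with adjusted p = 0.0529 and 0.0665. The call was likewise lost at a similar fold without fish 11 or 12 for rank 23 and without fish 4, 11 or 12 for rank 31.

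Together the 3 genes took 29.4% of the reads of hybrid 12 and 8.84% of hybrid 14. In hybrids 4, 10, 11 and 13 they took 0.0862%, 0.0802%, 0.181% and 0.238%, and in P. formosa 3, 4, 11 and 12 they took 0.0295%, 0.0579%, 0.0462% and 0.000275%. With them left out of the library, the 10 most counted genes of hybrid 12 took 19.4% of the rest, the lowest value of the 10 livers. The smallest number of genes holding 50% of the rest was then 146 in hybrid 12 and 102 in hybrid 14. It was 39 to 55 in P. formosa and 49 to 82 in the other hybrids. The 3 genes were chosen for their levels in these fish, so the numbers without them are a description with no test.

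**Figure D5:**
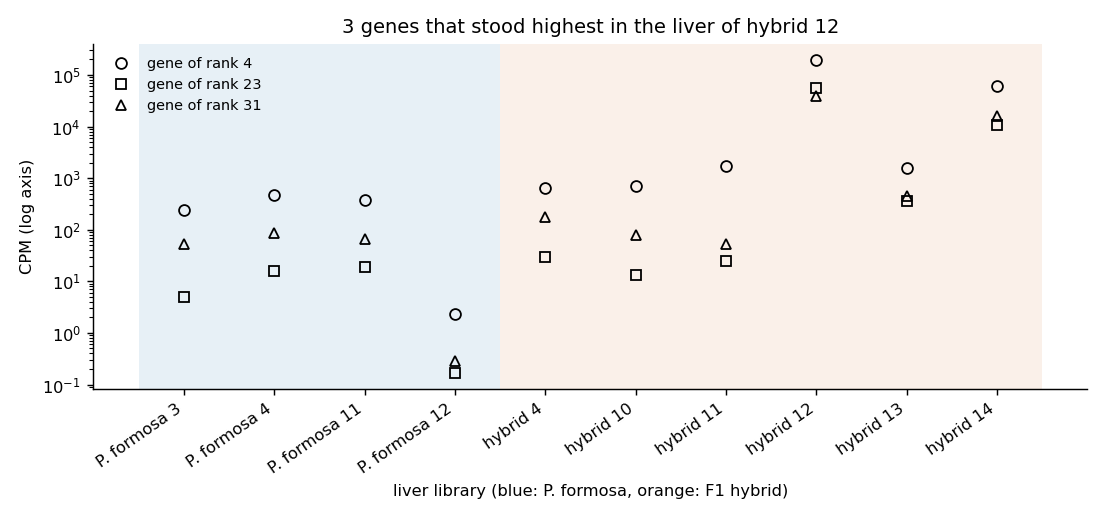
CPM on a log axis of the genes of ranks 4, 23 and 31 in each of the 10 liver libraries, with P. formosa on a blue and F1 hybrids on an orange ground. All 3 genes peak in hybrid 12, follow in hybrid 14, and are lowest in P. formosa 12.

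A wider set was also highest in hybrids 12 and 14. It was picked after seeing the values, as genes with at least 5 CPM in hybrid 12 and at least 8 times the highest of the 8 livers other than hybrids 12 and 14, and so carries no test. It held 15 genes, the 3 above included. In hybrid 14, 14 of the 15 were above those 8 livers, and 10 were at least 8 times above them. P. formosa 12 was the lowest of the P. formosa livers for 12 of the 15. No shares over all genes are given to set beside these counts. The 12 genes beside the first 3 summed to 2399 CPM in hybrid 12 and 1038 CPM in hybrid 14, against 36.1 to 74.1 CPM in the other hybrids and 8.54 to 65.3 CPM in P. formosa.

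The 3 most abundant of these genes were also counted at low levels in other organs. Summed, they reached 60.2 CPM in the brain of hybrid 12 and 86.4 CPM in that of hybrid 14. The 3 genes summed to 11.0 and 14.0 CPM in the brains of hybrids 11 and 13, and to 1.54 and 3.55 CPM in those of hybrids 4 and 10. In P. formosa brains they summed to 0.739 to 2.36 CPM. In ovary they summed to 52.9 CPM in hybrid 12 and 35.3 CPM in hybrid 13, 3.00 and 2.13 CPM in hybrids 4 and 10, and 1.54 to 3.41 CPM in P. formosa. In both organs every library of the later library series was above every library of the earlier series. The cause was not tested.

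Among the 111 genes at 1000 CPM and over, 1 gene, of rank 24, marked the clone. It stood at 8526, 13250, 8946 and 13205 CPM in P. formosa fish 3, 4, 11 and 12, about as much as the gene of rank 10. In hybrids 4, 10, 11, 12, 13 and 14 it stood at 63.2, 41.4, 11.3, 10.0, 93.0 and 27.0 CPM. The log2 fold change was 7.88 (SE 0.71, edgeR adjusted p = 2.06e-05), and without hybrids 12 and 14 it was 7.53. The gene was singled out after its values were seen. It was scarce outside the liver, at 4.27 to 65.6 CPM in P. formosa brain and 0.973 to 2.77 CPM in P. formosa ovary, against at most 0.424 CPM in hybrid brain and 0.177 CPM in hybrid ovary.

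The other called genes of this class moved less, apart from the 3 that peaked in hybrid 12, with log2 fold changes of -10.46 to -7.63. Among the higher genes, the next by size was of rank 37, with a log2 fold change of 2.04 (edgeR adjusted p = 0.0103). It averaged 5907 ± 354 CPM in P. formosa (SD, n = 4) and 1286 ± 1004 CPM in the hybrids (SD, n = 6). The other 8 higher genes had log2 fold changes of 0.52 to 1.37. Of the 20 lower genes, 3 were the genes that peaked in hybrid 12, and the other 17 had log2 fold changes of -2.17 to -0.43. The gene of rank 64, chosen as an example after its values were seen, averaged 777 ± 434 CPM in P. formosa and 3108 ± 1062 CPM in the hybrids (log2 fold change -2.15, edgeR adjusted p = 0.00241).

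Genes nearly confined to livers of 1 genotype formed the ends of the list. Gene 103154613 stood at 4.397, 5.44, 6.48 and 5.38 CPM (scaled by TMM) in P. formosa fish 3, 4, 11 and 12 and had 0 counts in the 6 hybrid livers. It was at least 450.5-fold higher, taken against 3 counts over the hybrid livers. Gene 103144922 stood at 32.4, 40.7, 35.2 and 66.1 CPM in the P. formosa livers, with 6 counts over all hybrid livers, found in fish 4, 11 and 14. The edgeR adjusted p was 1.17e-05 and 1.69e-07. Both genes were also counted in P. formosa brain, at 3.89 to 15.03 and 0.136 to 1.03 CPM. In hybrid brain and ovary gene 103154613 had 0 CPM. Gene 103144922 was counted there, at 0.0564 to 0.167 CPM in hybrid brain, which overlaps P. formosa brain. In ovary it stood at 0.194 to 0.916 CPM in the hybrids and 2.42 to 4.99 CPM in P. formosa.

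In the other direction, gene 103131645 had 0 counts in the 4 P. formosa livers and stood at 16.9, 10.7, 14.97, 14.3, 11.2 and 15.8 CPM in hybrids 4, 10, 11, 12, 13 and 14. It was at least 872-fold lower in P. formosa, taken against 3 counts over those livers. The hybrid livers lay within a narrow range, and the gene had 0.0544 to 0.356 CPM in P. formosa brain and 6.95 to 10.1 CPM in hybrid brain. Gene 103132985 also had 0 counts in P. formosa livers and stood at 4.03 and 1.68 CPM in hybrids 4 and 10 and at 8.76 to 12.4 CPM in hybrids 11 to 14, at least 493.5-fold lower in P. formosa. Outside the liver the groups overlapped for this gene, at 0.299 to 0.685 CPM in P. formosa brain and 0.587 to 1.47 CPM in hybrid brain, and at 0.371 to 0.418 CPM in P. formosa ovary and 0.326 to 1.12 CPM in hybrid ovary. For these genes the edgeR adjusted p was 6.71e-07 and 1.49e-04.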

How the data were processed

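The authors deposited raw read counts per gene, 1 column per library, not normalized. TopHat2 and featureCounts are named, without versions or settings, in the submitters' processing notes. Build, annotation and strand handling are not given in the sources used here, and overlapping genes and near-identical copies therefore cannot be told apart. How well reads of either genotype aligned was not tested, which bears on every gene nearly confined to 1 genotype. Libraries followed the TruSeq mRNA protocol from RNA with an integrity number above 8, per the labels. All columns matched a sample by name and 0 were left unused. No table pairing IDs with names was used, so the pathway, complex and cell type lists and the naming of genes by symbol could not be run. By the rule for that case, IDs are printed for 2 genes at either end of the log2 fold changes, out of those with adjusted p under 0.05, non-overlapping groups and a mean of 5 CPM or more in whichever group was higher. Other genes are given by rank. The comparison and lists were chosen with earlier results of these data known.

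The liver libraries were fitted alone in edgeR 4.0.16 (R 4.3.3): filterByExpr, TMM, robust quasi-likelihood test, P. formosa minus hybrid, Benjamini-Hochberg adjustment over all genes tested. A standard error is the log2 fold change over the square root of F. Level classes use the mean of the group means of TMM-scaled CPM, while shares, detection and other CPM use plain totals. Correlations and components used log2 CPM with a prior count of 2. Values per library were tested with exact permutation over fish (scipy 1.17.1). The fit was also run on simulated counts with few genes changed, equally many up and down. That setting differs from these data, so it cannot show how the fit handles scaling when many genes differ. Alternatives were DESeq2 1.42.0, other scalings and filters, the library series, each fish left out, and subsets chosen after seeing the data. Between livers of a group, chi-square per degree of freedom was at least 57.0, so no library was a copy. Counts without molecular identifiers are not independent molecules, so bounds cover counting error only.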

Additional observations from a re-analysis of the deposited data

Results flagged for a closer look

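Of 35 groups of values checked for a single fish far from the others of its group, 4 had one. Hybrid 12 stood apart in the share of its 10 most counted genes (41.4%, next 30.8%), in the fourth-ranked gene (19.8% of its reads, next 6.21%) and in the gene of rank 23 (56729 CPM, next 10610). These values share the same reads. P. formosa 3 stood above the other P. formosa fish for the third-ranked gene, at 6.05% against 5.47% for the next.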

How the results depend on the processing

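Of the alternatives to the 2 counts of called genes and the 3 measures per library, 82 gave the same answer, 13 moved the value, 1 lost a call, 1 gained one and 0 reversed one. For the counts, the same answer allowed large shifts. Upper-quartile factors, with 5023 higher and 3018 lower genes against 4213 and 3916, were counted as the same. For the measures per library it meant the same direction and the same outcome of the test. Leaving out each fish gave 3413 to 4349 higher and 3005 to 4058 lower genes, differences in genes detected of 1344 to 1687, differences in the share of the 10 most counted genes of -1.10 to 2.05 points, and differences in genes holding 50% of reads of -16.6 to -6.55. Lower genes numbered 2610 with library totals and 2554 with totals without the 10 dominant genes. With only P. formosa fish 3 and 4, 2246 genes were higher and 1836 lower. The difference in genes detected was 1355 against hybrids 4 and 10, where 0.133 is the smallest p possible. The difference in share was 1.36 points against those hybrids, 1.10 for the same 10 genes in every library, 2.49 for the 100 most counted genes and 4.21 without the 3 genes highest in hybrid 12. Without those 3 genes the number holding 50% of reads differed by -34.8, the gained call, which has no weight as a test because the genes were chosen from these values. The cause was not tested. Without a filter 4852 genes were higher and 4183 lower, and DESeq2 gave 4425 and 4325. Fish numbers 4, 11 and 12 occur in both groups but name different animals, whose deviations correlated at 0.0449 to 0.0571, and no liver matched its own number best. With the number as a replicate block, 2773 were higher and 2295 lower. Gene lists could not be run without names.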
